A study of Drosophila melanogaster with 3 samples.

Results

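Of the 9708 reproducible binding peaks of the chromatin protein E(bx) in fruit fly embryos, 338 (3.48%, 95% Wilson interval 3.14 to 3.87) had their summit in an annotated exon and over 500 bp from every annotated transcription start site (TSS). Members were chosen by position alone, on the dm6 build with the gene models of Ensembl release 115, and the height of a peak was not used. Each was given 1 exon class, in the order coding sequence, 5′ UTR, 3′ UTR and exon of a non-coding gene. This put 59 summits in coding sequence, 73 in 5′ UTRs, 172 in 3′ UTRs and 34 in non-coding exons. Among the 3′ UTR summits, 68 lay within 200 bp of an annotated transcript end, here called gene ends, and 104 lay farther away. The rest of the set held 1282 distal intronic peaks, 892 distal intergenic peaks and 7196 promoter peaks, the last with a summit within 500 bp of a TSS.

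Whole embryos of mixed sex, aged 0 to 16 h, came from the strain E(bx)-GFP, a transgenic line with green fluorescent protein fused to the C terminus of E(bx). Chromatin was sheared by sonication to 200 to 800 bp and immunoprecipitated, with an antibody against the fluorescent protein per the labels' description and against E(bx) per their antibody field. The 3 biological replicates, from separate biosamples, form 1 group with no second condition, so all comparisons are between kinds of peak. Embryos of many stages and all tissues were pooled, and binding in few cells cannot be told apart from weak binding in many. The peaks were called with a control by the authors, but control data were not analysed here.

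E(bx), also called NURF301, is the large subunit of the nucleosome remodelling factor NURF, which slides nucleosomes with the ATPase Iswi and is recruited by sequence-specific factors such as the GAGA factor. The 3′ UTR is the last transcribed stretch of a messenger RNA and, in compact genomes, often borders the next gene. Su(Hw) and CTCF are zinc finger proteins that bind insulators, elements that separate neighbouring regulatory domains, and the GAGA factor and CLAMP both bind GA-rich DNA.

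The motifs described most fully are a core of the Su(Hw) binding sequence, a core of the CTCF sequence, and the pentamer GAGAG bound by the GAGA factor and CLAMP. The sequences below show these cores in their setting, taken from RefSeq's Release 6 genome (dm6), read 5′ to 3′ on the strand that holds the core, with the core in capitals. They are among the strongest holders of these cores in their class, chosen after their values were seen. A match of letters is a description and not a mapped binding site.
Mob2 3′ UTR, 3L:11523502-11523531, plus strand: aacttttcggtGCATACTTtcaggctggct
corn 3′ UTR, 3L:7143468-7143497, minus strand: ctttcaatgctGCATACTTttcgtctgaaa
Pdp1 3′ UTR, 3L:7815894-7815923, minus strand: cctttaacgtaGCATACTTccgagcgcaat
Slc45-1 3′ UTR, 3L:9203163-9203192, minus strand: acaatgttgtgGCATACTTtaaggatgaag
ush 5′ UTR, 2L:490231-490260, minus strand: ccgcttgcaagGCATACTTttaggctttcc
E2f1 5′ UTR, 3R:21626675-21626704, plus strand: actatattgtaGCATACTTttaagcactgc
CG10357 3′ UTR, 3L:3616500-3616529, minus strand: cctggccgtagGGTGGCGCtccattagttt
CG9166 3′ UTR, 3L:1352350-1352379, minus strand: tttcagaaataGGTGGCGCtagcgtcgctt
klar coding sequence, 3L:506256-506285, plus strand: cccagacccaaGGTGGCGCtgctgtgcaga
The first 6 hold the Su(Hw) core and the last 3 the CTCF core.

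GAGAG is shown in 3′ UTRs of the X chromosome, where it was more frequent than in autosomal 3′ UTR peaks, and in the exon of roX1, chosen for its role in dosage compensation although 3 non-coding exon holders were stronger. The capitals mark the longest run of alternating G and A that contains it within 100 bp of the summit.
APC7 3′ UTR, X:6599362-6599391, plus strand: agcacttaatcgGAGAGcgctgttaatgtt
raskol 3′ UTR, X:17751804-17751833, plus strand: gtcagtgtagatGAGAGAaggcgacaccta
Lim1 3′ UTR, X:8757948-8757977, minus strand: agagcgagagcGAGAGAGAGcggcgcgagt
Hr4 3′ UTR, X:2005966-2005995, minus strand: caagtagaaattgGAGAGcgcgtaaaatgt
lncRNA:roX1 exon, X:3861325-3861354, plus strand: agagagtgatgGAGAGAGggagccgtctct

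Exonic peaks were spread unevenly over the classes once the available sequence was counted. Sequence over 500 bp from every TSS came to 18.6 Mb of coding sequence, 0.810 Mb of 5′ UTR, 5.93 Mb of 3′ UTR and 1.10 Mb of non-coding exon. Coding sequence held 3.17 peaks per Mb (exact Poisson 95% interval 2.41 to 4.09), against 24.3 in introns and 24.6 in intergenic sequence, so it was the sparsest class. In 5′ UTRs the density was 90.1 per Mb (70.6 to 113), above the introns and the intergenic sequence. The 3′ UTRs held 29.0 per Mb (24.8 to 33.7) and non-coding exons 31.0 (21.5 to 43.3), and both intervals overlapped those of introns, which reached 25.6, and of intergenic sequence. Nearness to the start site accompanied part of the count: 112 of the 338 members lay 501 to 1000 bp from a TSS, among them 43 of the 73 in 5′ UTRs. Over 1000 bp from every TSS the densities were 67.1 per Mb in 5′ UTRs, 28.0 in 3′ UTRs, 32.8 in non-coding exons and 2.54 in coding sequence, against 19.7 in introns and 20.2 in intergenic sequence. All these intervals, and those of shares, cover counting error only. On chromosome 4, 5 coding peaks gave 19.6 per Mb (6.36 to 45.7), the highest coding density of an arm. Its intergenic density was also the highest of an arm, at 69.3 per Mb (40.4 to 111), but its introns held 21.5 (11.1 to 37.6).

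**Figure D1:**
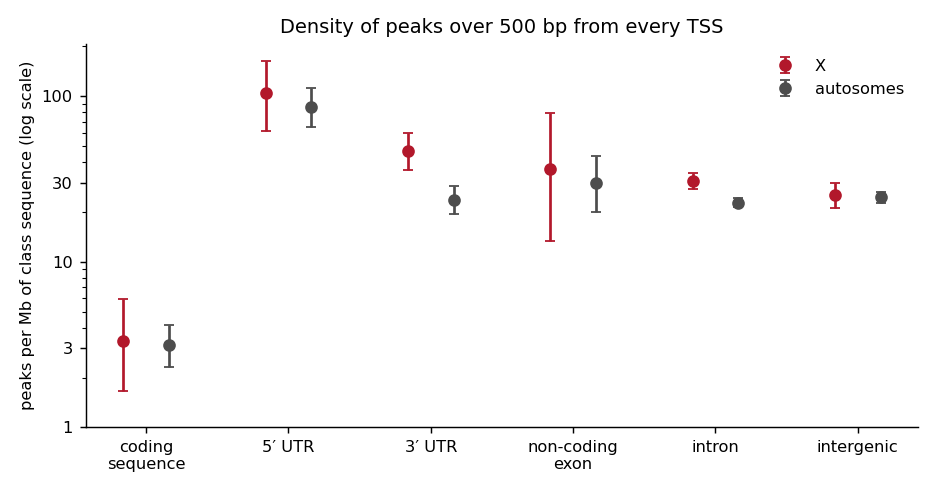
Peaks per Mb of sequence of each class over 500 bp from every TSS (log axis), on X (red) and on the autosomes (grey), with exact Poisson 95% intervals. The 3′ UTR shows 46.7 on X and 23.6 on autosomes, with intervals that do not overlap, while coding sequence lies near 3 on both.

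The reproducible set was the top of the pooled-read list by signal value, and the lists of single libraries held 28972 to 30000 peaks. Signal value is a score written by the authors' caller without a stated scale, and values are compared only within a list and as descriptions. Read totals are not in the lists and the depth is unknown. Replicate 3 stood somewhat apart and recovered fewer of the distal peaks than replicates 1 and 2.

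Exonic peaks had about the signal of other distal peaks and less than promoter peaks. Their median signal value in the pooled reads was 299 (quartiles 211 and 542, range 157 to 2638), against 314 for distal intronic and intergenic peaks together, 271 for the intronic ones, 410 for the intergenic ones and 614 at promoters. By class the pooled medians were 258 in coding sequence, 292 in 5′ UTRs, 320 in 3′ UTRs and 364 in non-coding exons. Coding peaks were thus the weakest in the pooled reads and in replicate 3. In replicates 1 and 2 the 5′ UTR medians were lower, at 65.3 and 89.2 against 74.6 and 107 in coding sequence. The median log2 signal of coding peaks exceeded that of distal intronic peaks in 3 of 3 libraries, by 0.13 ± 0.05 (SD, n = 3). It covers only peaks with a library peak within 200 bp, which were 58, 57 and 54 of the 59 coding ones. In the pooled reads the order was the other way, with medians of 258 in coding and 271 in intronic peaks. A summit within 200 bp among a library's own 9708 best peaks was found for 88.5%, 89.4% and 76.6% of exonic peaks in replicates 1, 2 and 3, against 86.8%, 89.0% and 73.6% of the other distal peaks. The exonic share was higher in 3 of 3 libraries, by 1.72 ± 1.34 percentage points (SD, n = 3; exact sign-flip permutation test over libraries, two-sided, p = 0.25, the smallest that 3 libraries allow). The median log2 signal of the matched peaks was lower for exonic than for other distal peaks in 3 of 3 libraries, with a difference of -0.08 ± 0.07 (exact sign-flip permutation, p = 0.25). Each reversed against 1 of the classes alone: the log2 signal was 0.15 higher than in intronic peaks, and the difference in recovery was -0.91 points against intergenic peaks. Against promoter peaks, the difference in recovery was -16.02 points in replicate 3 but -4.49 and -2.97 points in replicates 1 and 2. Coding peaks were recovered less often than distal intronic ones in 3 of 3 libraries, with a difference of -2.16 ± 0.61 points (SD, n = 3).

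All 3 libraries held a matching summit for 216 exonic peaks (63.9%, 58.7 to 68.8), against 59.2% of other distal peaks, 83.1% of promoter peaks and 77.1% of the whole set. The share was 50.8% (38.4 to 63.2) in coding sequence, 67.1% (55.7 to 76.8) in 5′ UTRs, 66.3% (58.9 to 72.9) in 3′ UTRs and 67.6% (50.8 to 80.9) in non-coding exons. Another 61 members were found in replicates 1 and 2 but not in replicate 3, and 12 in replicate 3 alone. The 2 that no library's best peaks held were both 3′ UTR peaks, in CG18577 (signal value 172) and Vlet (157). A neighbouring peak can supply the match, since 15, 18 and 8 members in replicates 1, 2 and 3 shared their library peak with another reproducible peak.

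**Figure D2:**
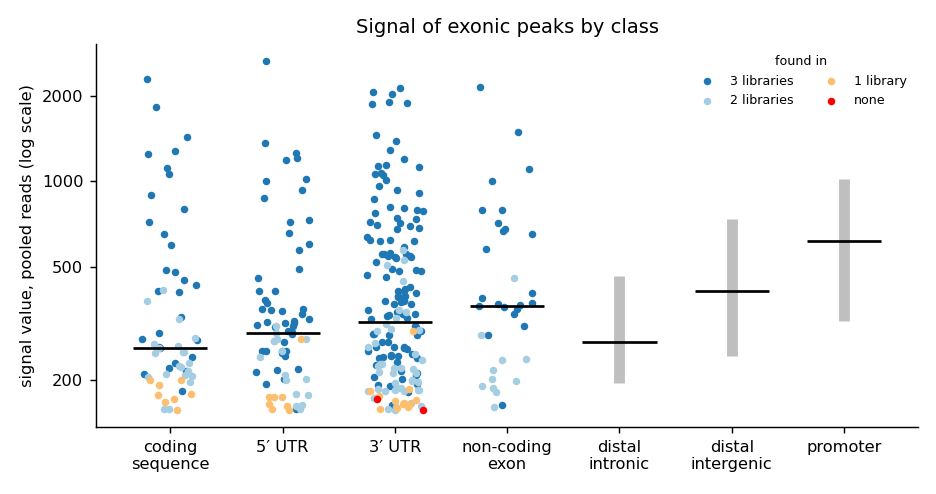
Signal value of each of the 338 exonic peaks in the pooled reads (log axis), by exon class, coloured by the number of libraries whose best peaks hold it, with the median as a line. Grey bars on the right are the quartiles of distal intronic, distal intergenic and promoter peaks; the strongest exonic peak, at 2638, is in a 5′ UTR.

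In each library's own list the exonic share was 3.52%, 3.67% and 3.10% of the 9708 best peaks (mean 3.43 ± 0.29, SD, n = 3), against 15.2%, 17.7% and 16.7% of the remaining peaks, which include background by design. Coding sequence made up most of that difference, with 0.573% ± 0.053 of the best peaks and 10.6% ± 1.56 of the remaining ones. For 3′ UTRs the shares were 1.71% ± 0.16 and 3.69% ± 1.03. Exonic summits, and coding ones above all, were thus more frequent among weak peaks than among strong ones in 3 of 3 libraries. The other distal classes shared this direction and it is not particular to exons. Introns held 13.2% ± 1.55 of the best and 40.1% ± 1.40 of the remaining peaks, and intergenic sequence 9.30% ± 1.74 and 18.0% ± 0.19.

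The strongest coding peaks lay in InR, klar and scrib. InR encodes the insulin-like receptor; its peak in exon 4 of 13 (3R:21580049-21580502), 9899 bp from the nearest TSS, had a signal value of 2282 in the pooled reads and of 753, 981 and 565 in replicates 1, 2 and 3. klar, whose product anchors organelles to microtubules at the nuclear envelope, had a peak of 1817 in exon 4 of 18, with 478, 644 and 620 in the replicates. Both ranked among the 1000 strongest peaks of the set, as did scrib, a polarity scaffold, with 1431 (394, 550 and 483). CG11905 (1278), Uba1, the ubiquitin-activating enzyme (1247), and otp, a homeodomain factor of the nervous system (1113), completed the 6 strongest. The Uba1 summit, 568 bp from its TSS, shared a region of 2061 bp with a promoter peak, while those of InR, klar, scrib, CG11905 and otp stood in regions of their own. Among the 59 coding summits, 37 lay in internal exons and 15 in last exons of their host, and 5 were within 200 bp of a transcript end. The 100 bp on either side of their summits had a median GC content of 49.3%, against 52.2% in all coding windows.

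The 5′ UTR class held the strongest exonic peak of all. ush encodes a zinc finger cofactor of GATA factors; its peak in exon 2 of 9 (2L:490059-490782) reached 2638, rank 50 of 9708, with 846, 904 and 876 in the 3 libraries. Its summit was 553 bp from an alternative ush start, 17266 bp from the nearest promoter peak, and held the Su(Hw) core printed above. Mef2, a muscle transcription factor, followed with 1365 (381, 497 and 489), then E2f1, a cell cycle transcription factor, with 1251 (318, 388 and 551). baz, the fly Par-3, had 1211 (281, 435 and 506), Wdr62, a spindle protein, 1191 (277, 385 and 553), and JIL-1, a histone H3 kinase, 1013 (248, 394 and 382). The libraries order these peaks differently. Replicate 3 gave the highest of the 3 values at E2f1, baz and Wdr62, as it did for the median of all reproducible peaks (140, 181 and 223). Signal values of different lists share no stated scale. Of the 73 summits, 43 lay in an internal exon and 28 in the first exon of the host transcript; 7 shared a region with a promoter peak. Host genes were long, with a median of 19397 bp against 2166 bp for all protein-coding genes. Of 66 host genes, 54 (81.8%, 70.9 to 89.3) also had a promoter peak, against 50.3% of all protein-coding genes, which are shorter.

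The 3′ UTR peaks away from gene ends were led by APC7, a subunit of the anaphase-promoting complex. Its peak on X (6599120 to 6599609) had a signal value of 2122, and of 696, 840 and 597 in the libraries, 354 bp from the annotated end; APC7 had no promoter peak, and its neighbour pigs began 717 bp from the summit. tio, a zinc finger factor, had 2060 (644, 820 and 711), 1079 bp from its end, and RSG7, a regulator of G protein signalling, 1897 (645, 765 and 483), 782 bp from one. At gene ends the strongest were CG10357 with 2029 (593, 705 and 752), CG10222 with 1453 (390, 521 and 517) and shd, the enzyme that makes the active moulting hormone, with 1384 (356, 493 and 523). CG9166, with 1887 (522, 598 and 808), was named for the CTCF core it holds. These peaks were found in 3 of 3 libraries. In CG10357, CG9166 and shd replicate 3 gave the highest of the 3 values. That holds for the median of all reproducible peaks too (140, 181 and 223 in replicates 1, 2 and 3), so it is not particular to these genes.

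Peaks at gene ends and away from them resembled each other in density, while the median signal was higher at ends. In replicates 1, 2 and 3 the median signal values were 94.2, 141 and 158 at ends, against 74.6, 100 and 129 away from them. X held 26.5% of the peaks at ends and 45.2% of those away from them, and 3′ UTR peaks on X had a lower pooled median than autosomal ones (262 against 341). Neither the difference in signal nor the part of the chromosome in it was tested. Gene ends held 27.5 peaks per Mb (21.4 to 34.9) with a median signal value of 344, against 30.04 (24.5 to 36.4) and 293 in the 3′ UTR sequence farther away; the intervals of density overlapped. All 3 libraries held 49 of the 68 peaks at ends (72.1%, 60.4 to 81.3) and 65 of the 104 away from them (62.5%, 52.9 to 71.2). Most 3′ UTR summits lay in the last exon, 155 of 172, and 14 in single-exon transcripts. Measured to the nearest transcript end of the host, the median summit was 155 bp before it, and 51 summits lay past a shorter end of a gene with several. The next protein-coding gene was convergent, its own end facing the host's, at 95 of 172 (55.2%), against 54.9% of all protein-coding genes, which are near each other. At 109 of 172 (63.4%) the next gene lay within 1000 bp of the host's end, against 68.8% of all protein-coding genes. The chromosomes went in different directions here. On X it was 48 of 65 (73.8%), against 65.8% of X genes, and on autosomes 61 of 107 (57.0%), against 69.3% of autosomal genes. This difference was not tested. Of 152 host genes, 99 (65.1%, 57.3 to 72.2) also had a promoter peak, against 50.3% of all protein-coding genes; these hosts were also longer, with a median of 8723 bp.

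**Figure D3:**
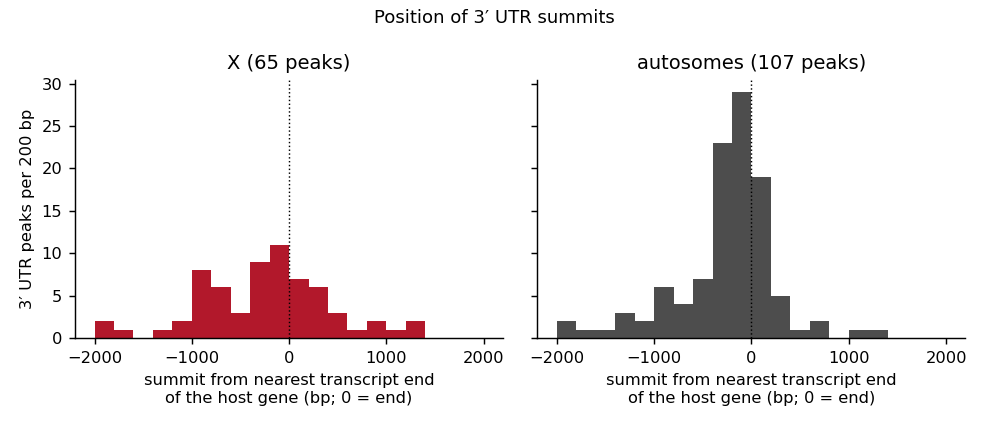
Number of 3′ UTR summits per 200 bp by distance to the nearest transcript end of the host gene, on X (left, 65 peaks) and on autosomes (right, 107 peaks); negative values lie before the end, and distances beyond 2000 bp are drawn in the outermost bins. Within 200 bp of a transcript end lay 50 of 107 autosomal summits and 18 of 65 on X. Per Mb of autosomal 3′ UTR, ends held 25.6 peaks (19.0 to 33.7) and sequence farther away 22.1 (16.7 to 28.6). On X these densities were 35.1 (20.8 to 55.4) and 53.4 (39.3 to 71.1), and the intervals overlapped in both cases.

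The X chromosome carried more 3′ UTR peaks than its share. Of the 172, 65 (37.8%, 30.9 to 45.2) were on X, against 18.4% of all reproducible peaks, 24.5% of distal intronic and 14.9% of distal intergenic peaks. Per Mb of 3′ UTR sequence X held 46.7 peaks (36.0 to 59.5) and the autosomes 23.6 (19.3 to 28.5). The ratio was smaller in the other classes: 3.31 on X against 3.14 on autosomes in coding sequence, 104 against 86.4 in 5′ UTRs, 36.3 against 30.1 in non-coding exons, 30.8 against 22.7 in introns and 25.4 against 24.5 in intergenic sequence. The ratio of X to autosomes in 3′ UTRs was 1.80, 1.67 and 2.08 among the 9708 best peaks of replicates 1, 2 and 3, against 1.24, 1.20 and 1.31 in introns and 1.01, 1.04 and 0.961 in intergenic sequence. It was 0.978, 1.15 and 1.15 in coding sequence and 1.20, 1.36 and 1.58 in 5′ UTRs. In non-coding exons, with 7, 10 and 7 peaks on X, it was 1.36, 1.71 and 1.23, and so above the 3′ UTR ratio in replicate 2. On the log2 scale the 3′ UTR ratio exceeded the intronic one by 0.56 ± 0.09, the intergenic one by 0.87 ± 0.22 and the coding one by 0.76 ± 0.19 (SD, n = 3; positive in 3 of 3 libraries each; exact sign-flip permutation, p = 0.25, the smallest possible). The libraries' other peaks gave 3′ UTR ratios of 1.56 to 1.86, against 1.25 to 1.45 in introns.

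**Figure D4:**
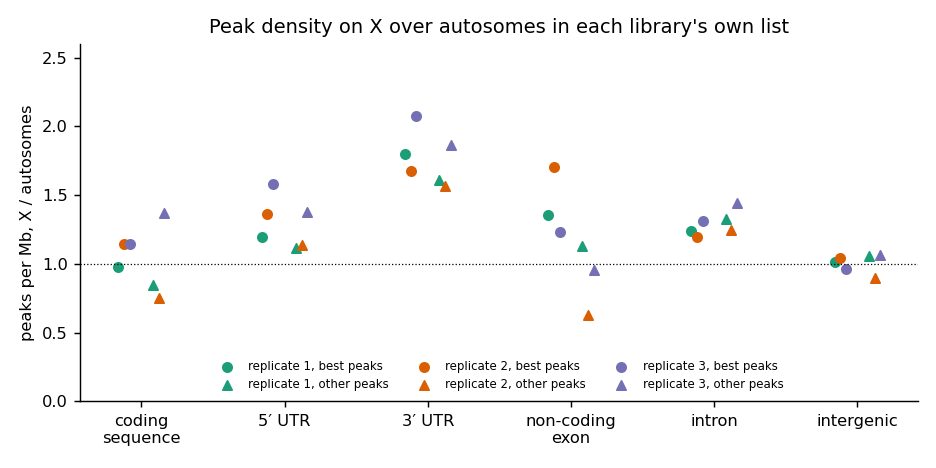
Peaks per Mb on X divided by peaks per Mb on autosomes, by class, in each library's own list: circles are the 9708 best peaks, triangles the remaining ones, colours the 3 libraries, and the dotted line equal density. The 3′ UTR circles lie at 1.67 to 2.08, above the intronic ones at 1.20 to 1.31 and the intergenic ones at 0.961 to 1.04, while the non-coding circle of replicate 2 reaches 1.71.

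The X peaks of 3′ UTRs were numerous but not strong. Their median signal value was 262 (range 157 to 2122) and that of autosomal 3′ UTR peaks 341, and in each library the median log2 signal was lower on X, with differences of -0.49, -0.72 and -0.47 (mean -0.56 ± 0.14, SD, n = 3; exact sign-flip permutation, p = 0.25). Among the 4854 strongest peaks of the set, 13 of 51 in 3′ UTRs were on X (25.5%, 15.5 to 38.9), against 52 of 121 among the weaker ones (43.0%, 34.5 to 51.9). The X share of all peaks also differed between these parts of the set, at 14.7% and 22.0%. The difference in density was larger away from gene ends, with 53.4 peaks per Mb on X (39.3 to 71.1) and 22.1 on autosomes (16.7 to 28.6), than at them, with 35.1 (20.8 to 55.4) and 25.6 (19.0 to 33.7). In the libraries the ratio was 2.21, 1.76 and 2.62 away from ends and 1.25, 1.49 and 1.38 at ends. X hosts had longer 3′ UTRs, with a median of 2414 bp against 881 bp for autosomal hosts, while the medians of all genes with a 3′ UTR were 327 bp on X and 211 bp on autosomes; the part of length in the result beyond the count per Mb was not tested. All 3 libraries held 47 of the 65 X peaks (72.3%, 60.4 to 81.7) and 67 of the 107 autosomal ones (62.6%, 53.2 to 71.2).

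Non-coding exons were led by the antisense RNA CR31912, with a signal value of 2147 and 730, 815 and 610 in the libraries. lncRNA:CR32218 had 1484 (426, 491 and 529) and lncRNA:CR43974 1106 (280, 445 and 383). lncRNA:roX1, one of the RNAs of the dosage compensation complex that coats the male X, had 1004 (261, 337 and 391), 758 bp from its start, and a promoter peak besides. lncRNA:CR44980 (793) and lncRNA:CR32111 (790) followed, and all 6 were found in 3 of 3 libraries. Antisense and overlapping genes share their sequence, and a peak has no strand, so which of the 2 genes a summit belongs to cannot be told apart. Of the 34 summits, 12 lay inside the body of another gene and 8 within 200 bp of a transcript end. Their median signal exceeded that of distal intronic peaks in 3 of 3 libraries, by 0.45 ± 0.07 on the log2 scale (SD, n = 3; exact sign-flip permutation, p = 0.25).

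The Su(Hw) core GCATACTT, searched on both strands within 100 bp of each summit, was present in 41 exonic peaks (12.1%, 9.07 to 16.0), against 5.2% of all reproducible peaks and 1.97% of promoter peaks. It was most frequent in 3′ UTR peaks, at 29 of 172 (16.9%, 12.003 to 23.2), against 0.984% of all 3′ UTR windows of the same length. That share was near those of distal intronic peaks (12.6%) and distal intergenic peaks (17.9%), so it is not particular to 3′ UTRs. On X it was 16.9% and on autosomes 16.8%. The match lay close to the summit, at a median of 11.5 bp, with 36 of 41 within 50 bp. Holders had a median signal value of 370, against 290 for exonic peaks without the core. Replicates 1 and 2 held 92.7% and 95.1% of the holders but replicate 3 held 70.7%, against 87.9%, 88.6% and 77.4% of the others; among distal intronic and intergenic holders the shares were 96.3%, 96.3% and 62.7%. Strong holders were ush, Mob2 (1283; 266, 466 and 566 in the libraries), E2f1, Wdr62 and tou, a chromatin protein (1056; 254, 308 and 475).

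The CTCF core GGTGGCGC was rarer and sat in stronger peaks. It was present in 14 exonic peaks (4.14%, 2.48 to 6.83), against 1.73% of all peaks, 2.96% of distal intronic, 4.82% of distal intergenic and 1.01% of promoter peaks, so the exonic share lay between those of the other distal classes. Coding sequence had it in 5 of 59 (8.47%, 3.67 to 18.4), against 1.39% of all coding windows, and 3′ UTRs in 8 of 172 (4.65%, 2.38 to 8.91), against 0.295% of all 3′ UTR windows. The median signal value of the 14 was 651, against 294 without the core, and 13 of the 14 were found in 3 of 3 libraries (92.9%, against 62.7% of the others). Besides CG10357, CG9166 and klar, holders were otp, CG10804, which holds the Su(Hw) core as well, Hr4, Cam and 7 weaker peaks. Other distal peaks with the core were also stronger, with a median of 944 against 306.

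GAGAG was present in 123 exonic peaks (36.4%, 31.4 to 41.6), against 27.9% of all peaks, 28.5% of distal intergenic and 49.9% of distal intronic peaks, so the intronic share was the highest of these. In 5′ UTRs it was in 44 of 73 (60.3%, 48.8 to 70.7), against 27.5% of all 5′ UTR windows, and in non-coding exons in 19 of 34 (55.9%, 39.5 to 71.1), against 20.7%. Coding peaks had it in 25.4%, against 23.1% of all coding windows. In 3′ UTRs the chromosomes differed: 25 of 65 on X (38.5%, 27.6 to 50.6) and 20 of 107 on autosomes (18.7%, 12.4 to 27.1), while all 3′ UTR windows had it in 20.2% on X and 18.6% on autosomes. The longer repeat GAGAGAGA, which contains GAGAG and was added after the data were seen, was in 16.9% of X and 2.80% of autosomal 3′ UTR peaks, against 2.34% and 1.07% of windows; distal intronic peaks had it in 16.9% as well. Holders of GAGAG were no stronger, with a median signal value of 307 against 298. In all, 164 of 338 exonic peaks held at least 1 of the 3 cores and 174 held none. The same share was not counted over all peaks. Of the 164, 123 held GAGAG, which was itself in 27.9% of all peaks.

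**Figure D5:**
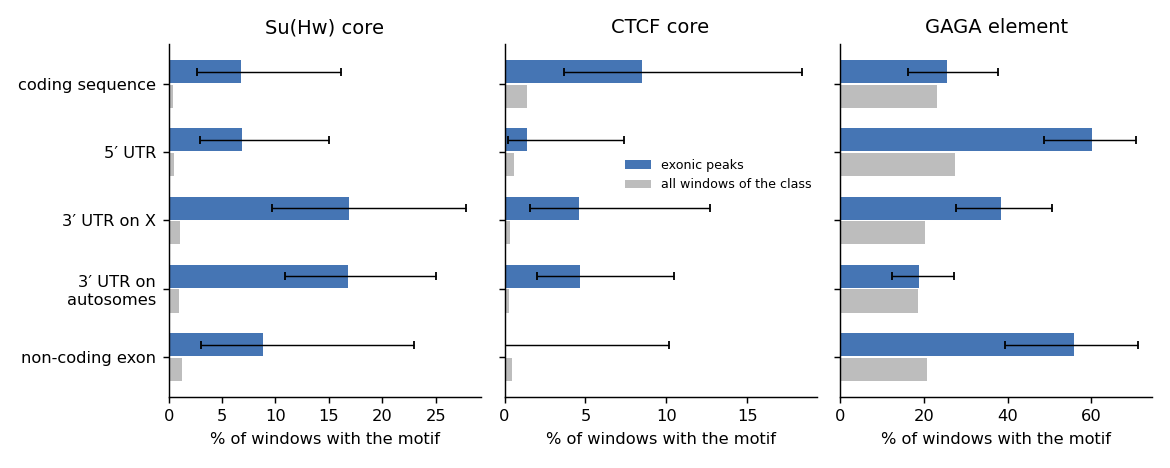
Share of windows, 100 bp to each side of a summit or centre, that hold the Su(Hw) core, the CTCF core or the GAGA element, by exon class, with 3′ UTRs of X and autosomes apart; blue bars are exonic peaks with 95% Wilson intervals and grey bars all windows of the class. The Su(Hw) core is at 16.9% and 16.8% of 3′ UTR peaks on X and autosomes, while the GAGA element is at 38.5% and 18.7%.

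The M1BP and DREF cores and CGATA were less frequent in exonic than in promoter peaks, as in the other distal peaks. The M1BP core GGTCACAC was in 0 of 338 exonic peaks, and a limit of 3 counts allows a share of up to 0.888%; it was in 1.33% of distal intronic, 0.897% of distal intergenic and 11.6% of promoter peaks. The DREF core TATCGATA was in 1.48% of exonic, 1.48% of distal intronic, 2.13% of distal intergenic and 12.2% of promoter peaks. In 3′ UTRs it was in 4 of 172 peaks (2.33%), against 0.540% of all 3′ UTR windows, but in 0 of 59 coding and 0 of 73 5′ UTR peaks. The shorter CGATA, which TATCGATA contains, was in 22.5% of exonic, 22.3% of distal intronic, 25.7% of distal intergenic and 46.7% of promoter peaks, and in 24.8% of all 3′ UTR windows. Of the E-boxes, CAGCTG was in 12.7% and the palindrome CACGTG in 3.85% of exonic peaks, against 18.0% and 3.35% of promoter peaks. Distal intronic peaks had CAGCTG in 11.5% and distal intergenic peaks in 7.85%. By class it was in 10.5% of 3′ UTR peaks, against 4.36% of all 3′ UTR windows, and in 17.8% of 5′ UTR peaks, against 9.61%. In coding sequence the shares were 16.9% and 14.4%, and in non-coding exons 5.88% and 7.90%. Near their shares of all peaks were the Zelda motif CAGGTAG (1.18% of exonic against 0.855% of all peaks) and the Pho motif GCCAT (29.9% against 31.2%). So was the Stat92E motif TTCNNNGAA (5.62% against 5.59%). The TATA box letters TATAAA were in 18.6% of exonic peaks, against 25.6% of all peaks and 27.2% of promoter peaks. The usual polyadenylation signal AATAAA was in 34.3% of 3′ UTR peaks and 45.5% of all 3′ UTR windows. The CA repeat CACACACA, added after the data were seen, was in 27.4% of 5′ UTR peaks, against 8.72% of all 5′ UTR windows. Distal intronic peaks had it in 16.5%, against 5.03% of all intron windows.

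The 338 peaks lay in 298 host genes, 265 of them protein-coding by the first host named, and 1.92% of all protein-coding genes held a member when every host was counted. Among the coding hosts 175 (66.0%, 60.1 to 71.5) had a promoter peak, against 50.3% of all protein-coding genes; coding-sequence hosts had one in 28 of 55. Hosts were long, with a median of 9225 bp. Genes with several members over 500 bp apart were led by RSG7, with 1897 and 489 in 1 3′ UTR, and Pdp1, a bZIP factor of the circadian clock, with 1127, 964 and 620. baz had 2 in its 5′ UTR (1211 and 252), raskol, a Ras GTPase-activating protein, 1 at its end (1143) and 1 in its 5′ UTR (194), and HisRS, the histidyl-tRNA synthetase, 1 in coding sequence (797) and 1 in its 5′ UTR (456). lwr, the SUMO-conjugating enzyme, had 3 at its end (791, 519 and 190), and the strongest and the weakest of them, 199 bp apart, matched the same peak of replicate 2.

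The counts on the 12 gene lists stand beside 1.92% of all protein-coding genes that held an exonic peak, and most rest on 1 gene. Antp was the 1 of 8 Hox genes, with a 3′ UTR peak of 1864 (656, 765 and 439), 1245 bp before its end. tou was the 1 of 8 NURF and ISWI genes, skd (174) the 1 of 27 Polycomb and trithorax genes, and Clamp (731; 271, 434 and 231) the 1 of 15 insulator genes. Of 14 ecdysone response genes, 3 held a peak: EcR (555; 163, 208 and 163) and Hr4 (701; 163, 232 and 314) in the 3′ UTR and ftz-f1 (272) in the 5′ UTR. wg (337) was the 1 of 24 segmentation genes and, with sgg (262), 1 of the 2 among 20 Wnt genes. numb (410) was the 1 of 13 Notch genes, Act5C (183) the 1 of 10 cytoskeletal genes, and roX1 the 1 of 8 non-coding RNA regulators. None of 10 JAK/STAT and 5 histone genes held one. A promoter peak was present at all 8 NURF and ISWI, all 27 Polycomb and trithorax and all 15 insulator genes, tou, skd and Clamp included, and at 5 of 8 Hox and 7 of 13 Notch genes, against 50.3% of all protein-coding genes.

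At the limit of 500 bp, the members just outside the window were Clamp at 507 bp (731) and mRpL27 at 513 bp (539), and the exonic summits just inside it were Pp2C1 at 500 bp (624) and fiz at 494 bp (238). At the edge of the reproducible set, the weakest member was Ziz in coding sequence (157), and the strongest exonic peak of the pooled list left out of the set was a coding one at 156. In 2 members the summit lay in an annotated transposable element, and in 1 the 51 bases at the summit were found more than once on the arms. At 5 members several genes had an exon of the assigned class at the summit. Overlaps with exons of another class were not counted.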

How the data were processed

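Peaks of E(bx) with C-terminal GFP were taken from the authors' deposited dm6 lists: 1 relaxed list per replicate, 1 called from pooled reads and the optimal IDR set. The deposited file records say that a control was used in calling; for the aligner, the caller and the IDR threshold the sources used here have no entry (not given in the sources used here). The signal value in the deposited lists is the authors' score, scale not stated. The deposited −log10 q-value was 4.39 for every peak of the set and could not rank them. Summits were taken as start plus offset, both as deposited; positions are printed counting from 1. The dm3 lists were not used. Depth is unknown.

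Summits were set against Ensembl release 115 (18164 genes on 6 arms, 13945 protein-coding, 23581 start sites; transposable elements left out) with Python 3.11.15, pandas 2.3.3 and scipy 1.17.1; the class, distance and matching code was tested on simulated data. Libraries were compared through their 9708 best peaks, matched within 200 bp; the value given for a library is that of its nearest listed peak within 200 bp. Densities divide by class sequence over 500 bp from every TSS. Motif windows reach 100 bp to each side; the share in all windows counts consecutive windows of that length centred in the class over 500 bp from every TSS. Of 15 motifs, 2 (GAGAGAGA and CACACACA) were added after the data were seen. Tests were exact sign-flip permutations over 3 libraries.

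The members, the 12 gene lists and the motifs were chosen with earlier results of these data known. Genes named are hosts of the 6 strongest members of each class (in 3′ UTRs 3 at gene ends and 3 away), up to 6 hosts with members over 500 bp apart, listed genes, and the neighbours of the 500 bp limit; motif holders and members found in no library were named after their values were seen. Alternatives tried were other TSS windows, start sites, class orders, matching rules, list lengths, gene-end distances and motif windows, the stronger peaks alone, and leaving out each replicate.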

Additional observations from a re-analysis of the deposited data

How the results depend on the processing

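Differences between kinds of peak were taken within each library; with 1 group, no samples of another group could be paired. With a TSS window of 250 bp there were 127 5′ UTR and 64 non-coding peaks, and with 1000 bp 36 coding, 30 5′ UTR and 21 non-coding ones. Start sites of protein-coding genes alone gave 94 non-coding peaks, and exons of protein-coding genes alone left 0 of that class. Gene ends within 100 bp held 30 peaks and within 500 bp 116. The 4854 strongest peaks held 88 exonic ones, namely 12 coding, 14 5′ UTR, 51 3′ UTR (25 at gene ends, 25.5% on X) and 11 non-coding, fewer by construction. Requiring a match in both other libraries, with each replicate left out in turn, kept 33 to 43 coding peaks, and the X share of 3′ UTR peaks was 38.6 to 40.7%. That X share under the TSS windows, class orders and other alternatives, added after the data were seen, was 34.3 to 43.2%.

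The exonic share of the libraries' best peaks, 3.43%, was 4.62% and 2.28% with TSS windows of 250 and 1000 bp, 12.2% over the whole lists and 1.81% with 4854 best peaks. Recovery against other distal peaks reversed to -1.84 points with 4854 best peaks and to -0.91 points against intergenic peaks alone; the signal difference reversed to 0.036 among the 4854 strongest peaks and to 0.15 against intronic peaks alone. The cause was not tested. With 3 libraries no test could pass 0.05, and as depth is unknown, a peak missing from a list is not shown to be absent. GAGAG in X 3′ UTR peaks was 27.7% within 50 bp and 50.8% within 200 bp of the summit, against 13.1% and 29.9% on autosomes.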
